A study of Mus musculus with 9 samples.

Results

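The Ugt1a locus is a family of UDP-glucuronosyltransferase genes on mouse chromosome 1 that are transcribed from separate first exons and end in the same exons. The 8 genes described here, Ugt1a1, Ugt1a2, Ugt1a5, Ugt1a6a, Ugt1a6b, Ugt1a7c, Ugt1a9 and Ugt1a10, were found by their symbols among the 21910 gene symbols of the mRNA values, and they held 15 of the 50660 mRNA transcripts. The locus was chosen by measured FPKM of these libraries, and which of them entered the choice is not recorded. The difference of Ugt1a2 between dbdb and control was known beforehand and is assumed to be the reason, so comparisons with the control libraries are given as a description. The p-values of the members in dbR vs. dbdb hold only if the dbR values had no part in the choice.

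RNA was sequenced from the renal cortex of 9 male mice on the C57BL/KsJ background at 15 weeks of age, 1 library per mouse and 3 mice in each of 3 groups. Control mice were non-diabetic db/m littermates, which carry the Lepr db allele on 1 chromosome only. The dbdb mice are homozygous for db, a mutation of the leptin receptor present in every cell of the body, and are diabetic. The dbR mice had the db/db genotype too and were dosed by gavage with rosiglitazone, which activates the nuclear receptor PPARγ, at 20 mg/kg/day from 7 weeks of age over 8 weeks, while dbdb mice were given vehicle over that time. Levels are FPKM, a fragment count corrected for how long the transcript is and how deeply its library was sequenced, as the authors deposited them.

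Glucuronosyltransferases sit in the membrane of the endoplasmic reticulum and couple glucuronic acid from UDP-glucuronic acid to small lipophilic molecules, which makes them soluble enough for bile or urine. The part of the protein that binds the substrate comes from the first exon, and the part that binds UDP-glucuronic acid comes from the shared exons, so the choice of first exon sets what the enzyme acts on. Ugt1a1 conjugates bilirubin, and Ugt1a6 enzymes conjugate small planar phenols. Transcription of the locus is known to respond to the aryl hydrocarbon receptor, NRF2, CAR, PXR and PPARα in liver and gut.

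The members spanned chr1:88055388-88220002 of GRCm38 on the plus strand, 164.6 kb. Their first exons stood in the order Ugt1a10, Ugt1a9, Ugt1a7c, Ugt1a6b, Ugt1a6a, Ugt1a5, Ugt1a2 and Ugt1a1, from 159.6 kb to 3.1 kb before shared exon 2. Shared exons 2 to 5 measured 132, 88, 220 and 871 nucleotides. In the 5-exon transcript of each gene the protein was encoded by 849 to 870 nucleotides of exon 1 and by the same 735 nucleotides of the shared exons, which were identical in all 8 genes. Shared exons made up 59.3% of the Ugt1a2 transcript and 58.9% of the Ugt1a1 transcript. The division of their reads between the genes therefore rests on first exons and on read pairs that reach into them. For Ugt1a6a-201 the shared part was 95.8%, since most of its first exon is also annotated in the Ugt1a7c transcript Ugt1a7c-202. The Ugt1a7c transcript Ugt1a7c-201 has in addition a longer last exon, which ends at position 88220002.

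The join of exon 1 to shared exon 2 is shown for the 8 genes, since it is the place where the transcripts become alike. The last 15 bases of exon 1 are in lower case and the first 15 bases of shared exon 2 in capitals, from the GENCODE transcripts of GRCm38.
Ugt1a10: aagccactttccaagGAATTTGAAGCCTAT
Ugt1a9: aagtcactttccaagGAATTTGAAGCCTAT
Ugt1a7c: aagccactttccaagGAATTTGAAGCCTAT
Ugt1a6b: ggaaagctgactcagGAATTTGAAGCCTAT
Ugt1a6a: ggaaagctgactcagGAATTTGAAGCCTAT
Ugt1a5: aagcccctctctcagGAATTTGAAGCCTAT
Ugt1a2: aagcccctctctcagGAATTTGAAGCCTAT
Ugt1a1: aagcccctatcccagGAATTTGAAGCCTAT

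The end of exon 1 was the same in Ugt1a10 and Ugt1a7c, in Ugt1a6b and Ugt1a6a, and in Ugt1a5 and Ugt1a2. Over the whole coding part of exon 1, identity between the genes ranged from 69.9% to 97.0% over 28 pairs, with a median of 73.0%. It was highest for Ugt1a6b with Ugt1a6a (97.0%), for Ugt1a10 with Ugt1a9 (92.1%) and for Ugt1a5 with Ugt1a2 (84.1%), and it was 73.1% for Ugt1a2 with Ugt1a1. Values of Ugt1a6a and Ugt1a6b, and of the low gene Ugt1a9 beside Ugt1a10, are uncertain to the extent that reads were divided between such similar exons.

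The upstream sequences of Ugt1a2 and Ugt1a1, the genes with the highest folds over control, are shown with that of Ugt1a7c, the gene with the highest level in control libraries. Each is the 250 bases before the gene start in the RefSeq annotation of GRCm38.p6, plus strand, and capitals mark a match to a motif named after them.
Ugt1a2, chr1:88200361-88200610: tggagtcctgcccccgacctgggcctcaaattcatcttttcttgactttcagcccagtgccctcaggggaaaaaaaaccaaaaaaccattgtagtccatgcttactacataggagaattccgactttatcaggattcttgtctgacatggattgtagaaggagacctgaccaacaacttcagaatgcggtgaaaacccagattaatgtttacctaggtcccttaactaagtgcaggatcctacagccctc
Ugt1a1, chr1:88211709-88211958: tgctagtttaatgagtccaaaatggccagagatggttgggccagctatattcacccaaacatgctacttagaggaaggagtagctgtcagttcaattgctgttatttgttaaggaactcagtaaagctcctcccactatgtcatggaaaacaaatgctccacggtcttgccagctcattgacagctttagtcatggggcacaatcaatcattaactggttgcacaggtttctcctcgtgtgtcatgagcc
Ugt1a7c, chr1:88094751-88095000: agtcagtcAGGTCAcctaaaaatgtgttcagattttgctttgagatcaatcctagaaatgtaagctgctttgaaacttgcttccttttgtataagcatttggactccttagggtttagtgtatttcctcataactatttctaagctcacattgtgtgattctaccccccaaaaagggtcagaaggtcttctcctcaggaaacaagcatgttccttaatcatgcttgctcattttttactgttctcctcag

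Such sequences were given for 7 of the 8 genes, and 5 motifs were searched on both strands. AGGTCA, the repeat unit of sites for PPAR with RXR, was present upstream of Ugt1a7c and Ugt1a9 (14.0% of the 32851 sequences of the table), and the full site with the unit repeated after 1 free base upstream of none of the 7 (0.03%). TNGCGTG, the letters of aryl hydrocarbon receptor sites, was present upstream of Ugt1a5 only among the 7 (4.1%). TGACNNNGC of NRF2 (10.2%) and the E-box CACGTG (6.02%) were present upstream of none of them. AGGTCA lies within the full site, and no other motif contains another. The sequences upstream of Ugt1a2 and Ugt1a1 held none of the 5. The RefSeq start of Ugt1a6a is that of an upstream exon and not of the transcript that carried its reads.

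The depth of the 9 libraries differed little, with a relative depth of 0.914 to 1.14 and an estimated 24.8 to 30.8 M fragments. Mitochondrial transcripts held 26.9% to 32.8% of the mRNA FPKM. Control replicate 3 stood apart in Gm26917, an RNA at 5.27 FPKM there against 1083 or more in the other libraries. Values without that library are given beside the results for Ugt1a2 and Ugt1a5. The Lepr transcript ENSMUST00000106921 had an FPKM of 0.923 to 1.08 in control, 0.232 to 0.360 in dbdb and 0.194 to 0.464 in dbR libraries, so both db/db groups lay below control. The proximal tubule markers Slc34a1, Lrp2, Cubn, Slc5a2, Slc5a12, Aqp1, Slc22a6 and Gatm were all read, with a summed FPKM of 3137 to 3476 in control, 3134 to 3863 in dbdb and 3458 to 3577 in dbR libraries.

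In control cortex the locus was dominated by Ugt1a7c, and in dbdb and dbR cortex by Ugt1a7c and Ugt1a2 together. The level of Ugt1a2, FPKM summed over its transcripts, was 4.01 ± 1.78 (SD, n = 3) in control, 178 ± 70.7 (SD, n = 3) in dbdb and 315 ± 87.9 (SD, n = 3) in dbR mice, so its mean was 44.5-fold higher in dbdb and 78.6-fold higher in dbR than in control. Ugt1a1 followed with means 11.1-fold and 12.3-fold higher than in control. Ugt1a10 was 2.57-fold and 1.89-fold higher, while the mean of Ugt1a7c was 0.804 of control in dbdb and 0.975 in dbR.

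Ugt1a2 has 1 deposited transcript, Ugt1a2-201 (ENSMUST00000049289). Its FPKM was 5.73, 4.11 and 2.18 in control replicates 1 to 3, 258, 156 and 121 in dbdb and 339, 388 and 218 in dbR. Every dbdb and dbR library lay far above every control library, and the ranges of dbdb and dbR overlapped. On the scale of log2(FPKM + 0.1), on which all fold changes below are given, the difference from control was 5.47 (SE 0.39) in dbdb and 6.32 (SE 0.39) in dbR. Without control replicate 3 these differences were 5.10 and 5.95. About 134 fragments were estimated from the FPKM behind the lowest control value. That number includes fragments of the shared exons, so how many lay in exon 1 of Ugt1a2 is not known.

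Ugt1a1 (Ugt1a1-201, ENSMUST00000073049), the bilirubin-conjugating enzyme, had an FPKM of 1.62, 2.34 and 1.60 in control libraries. It was 25.1, 21.2 and 15.5 in dbdb and 20.1, 23.9 and 24.5 in dbR libraries. The control libraries again did not overlap with the others, and dbdb and dbR overlapped. The log2 difference from control was 3.40 (SE 0.20) in dbdb and 3.57 (SE 0.20) in dbR. The ratio of Ugt1a2 to Ugt1a1 was not fixed, at 1.36 to 3.53 in control, 7.38 to 10.2 in dbdb and 8.90 to 16.9 in dbR libraries.

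**Figure D1:**
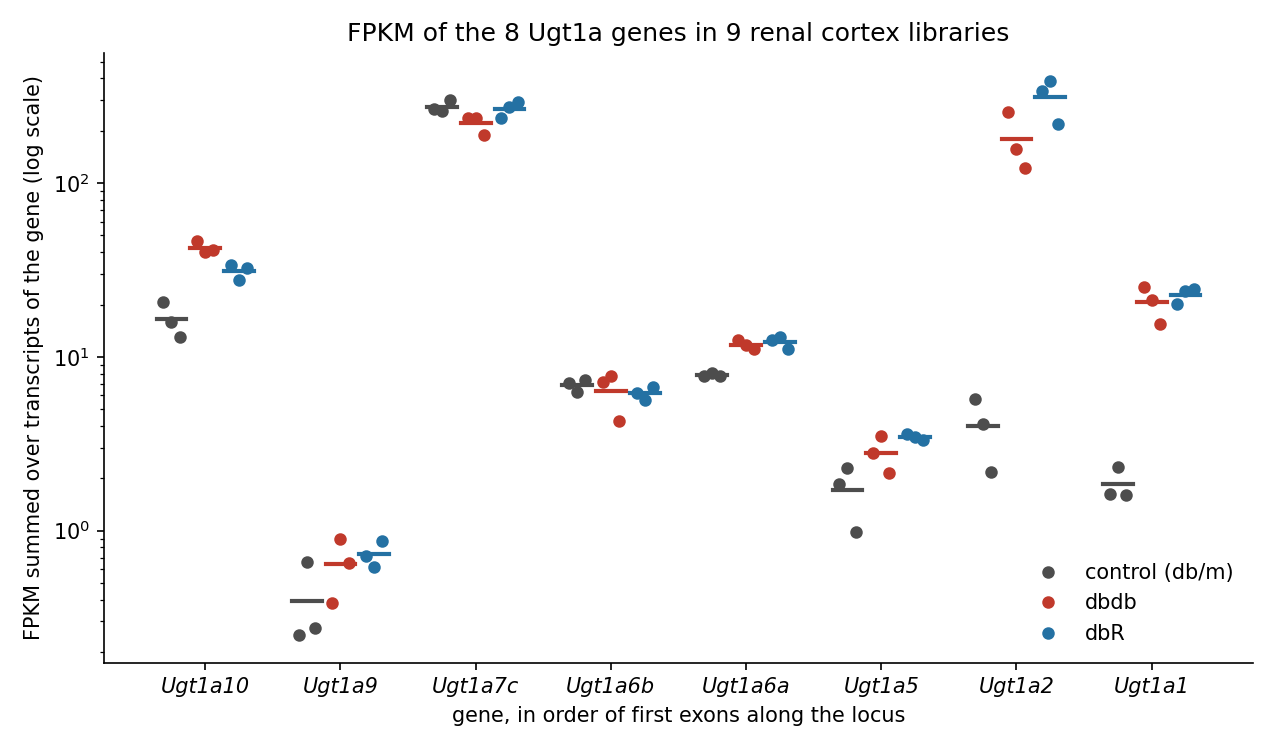
FPKM of each Ugt1a gene (y axis, log scale, summed over its transcripts) in the 9 libraries, with genes on the x axis in the order of their first exons. Points are libraries and lines are group means; Ugt1a2 and Ugt1a1 lie far above control in every dbdb and dbR library, while Ugt1a7c stays between 189 and 301 in all groups.

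Ugt1a10 was read mainly as Ugt1a10-201 (ENSMUST00000113142), with an FPKM of 18.6, 14.8 and 10.9 in control, 39.7, 34.5 and 35.7 in dbdb and 29.0, 23.3 and 28.7 in dbR libraries. The 3 groups did not overlap with each other, with dbR between control and dbdb. Ugt1a10-202 (ENSMUST00000138182) is a shorter transcript that begins 23 nucleotides further upstream and ends in shared exon 4. Only 23 of its 717 nucleotides lie outside the other Ugt1a transcripts, so its FPKM is not independent of that of Ugt1a10-201. It showed the same order, at 1.19 to 2.17 in control, 5.30 to 6.77 in dbdb and 3.23 to 4.6 in dbR libraries. The log2 difference between dbdb and control was 1.34 (SE 0.18) for the first and 1.66 (SE 0.24) for the second, and that between dbR and control was 0.89 (SE 0.18) and 1.15 (SE 0.24). Ugt1a10-203 (ENSMUST00000173325), with 2 exons before the shared ones, was listed at about 0 in 6 libraries and reached at most 0.499.

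Ugt1a6a was read as Ugt1a6a-201 (ENSMUST00000014263), with an FPKM of 7.79, 8.12 and 7.81 in control, 12.4, 11.7 and 11.1 in dbdb and 12.2, 13.1 and 10.8 in dbR libraries. The control libraries lay below all others, and dbdb and dbR overlapped, with log2 differences from control of 0.56 (SE 0.08) and 0.59 (SE 0.08). Its near copy Ugt1a6b, read as Ugt1a6b-201 (ENSMUST00000113137), overlapped in all 3 groups, at 5.69 to 6.77 in control, 4.26 to 7.72 in dbdb and 5.64 to 6.45 in dbR libraries. The first exons of the pair are 97.0% identical. The sum of both genes, which another division of reads between them would leave about the same, was 14.4 to 15.2 in control, 15.4 to 19.6 in dbdb and 17.8 to 18.7 in dbR libraries, with control again below all others. Ugt1a6b-202 (ENSMUST00000113138) had 0.522 to 0.628 in control and was listed at about 0 in 2 dbdb and 2 dbR libraries.

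Ugt1a7c had the highest level of the locus in control libraries. Ugt1a7c-201 (ENSMUST00000058237) had an FPKM of 249, 252 and 282 in control, 226, 222 and 178 in dbdb and 227, 264 and 281 in dbR libraries. The dbdb libraries lay below the control libraries without overlap, while dbR overlapped with control. The log2 difference from control was -0.33 (SE 0.11) in dbdb and -0.02 (SE 0.11) in dbR, and the latter took the opposite sign under scaling to the same 75th percentile and with the mitochondrial transcripts left out. The dbdb value was -0.18 with the mitochondrial transcripts left out and -0.22 without dbdb replicate 3. The short transcript Ugt1a7c-204 (ENSMUST00000150634) ranged from 6.88 to 19.2 in control and from 10.1 to 14.9 in the other libraries, with overlap of all groups.

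Ugt1a5 and Ugt1a9 were low. Ugt1a5-201 (ENSMUST00000097659) had 0.980 to 2.28 in control, 2.15 to 3.48 in dbdb and 3.34 to 3.60 in dbR libraries, so that dbR lay above control without overlap and dbdb overlapped with both. Its log2 difference from control was 0.74 (SE 0.29) in dbdb and 1.05 (SE 0.29) in dbR, and 0.40 and 0.72 without control replicate 3, where its control level was lowest. Ugt1a9-201 (ENSMUST00000073772) had 0.251 to 0.890 over all 9 libraries, with overlap of the groups and an estimated 14.9 to 50.9 fragments per library. Of the remaining transcripts, Ugt1a6a-202 and Ugt1a7c-202 were at about 0 in all libraries, and Ugt1a6a-204 had 0.254 and 0.314 in 2 dbR libraries and about 0 in the others.

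Of the 15 transcripts, 12 had a mean FPKM of at least 0.1 and were fitted together with all other transcripts. In dbdb vs. control 5 of the 12 passed an adjusted p under 0.05, all higher, beside 9.23% of the 31858 transcripts fitted in either direction and 4.35% higher. The groups did not overlap in 7 of the 12, beside 29.9% of all transcripts. Those 5 were Ugt1a2-201, Ugt1a1-201, Ugt1a10-201, Ugt1a10-202 and Ugt1a6a-201. In dbR vs. control the same 5 passed, beside 8.3% of all transcripts in either direction and 3.93% higher. Since the first of these comparisons was known when the locus was chosen and the second shares its control libraries, nothing is read from these counts. In dbR vs. control the count without dbR replicate 1 was 3, because both Ugt1a10 transcripts no longer passed. Ugt1a10-201 also did not pass without control replicate 2 or dbR replicate 3, nor Ugt1a10-202 without dbR replicate 2. Ugt1a10-202 failed as well with no filter on low values and in the fit to only the 6 libraries of that comparison.

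**Figure D2:**
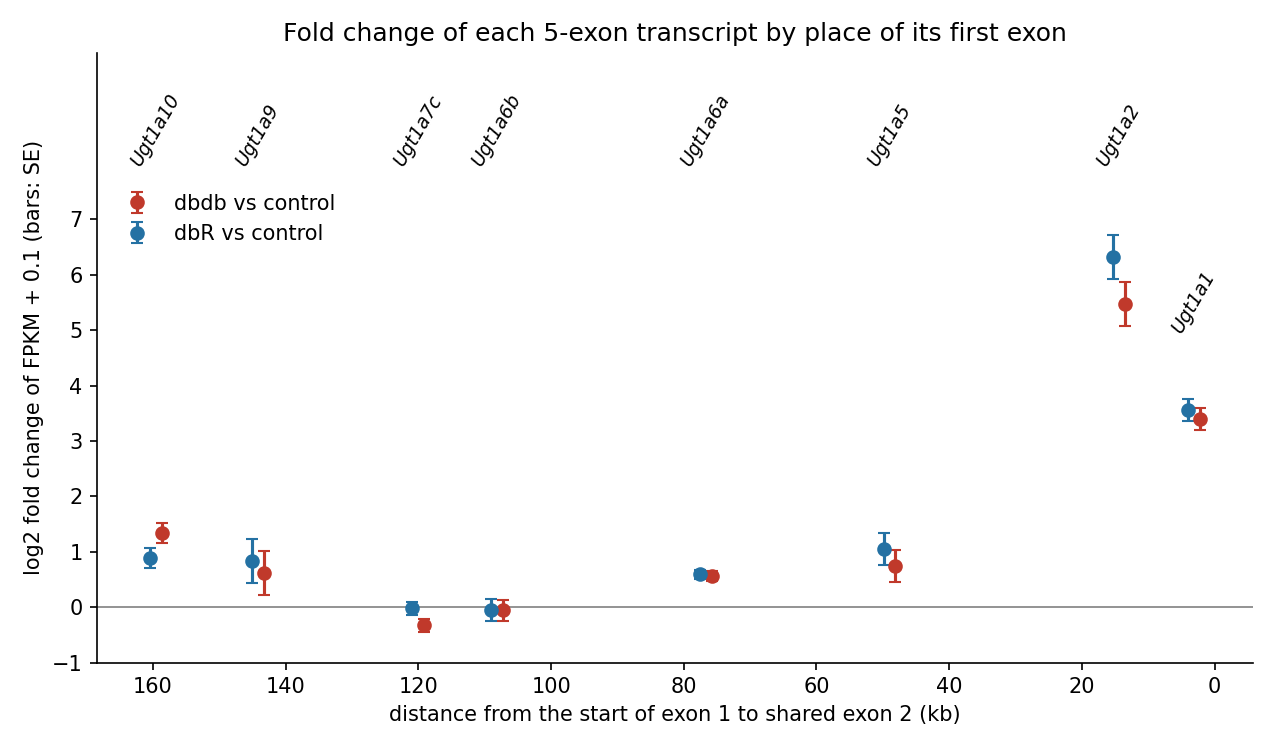
The log2 fold change over control (y axis, FPKM + 0.1, bars are SE) of the 5-exon transcript of each gene against the distance of its first exon from shared exon 2 (x axis, kb). The members nearest to the shared exons, Ugt1a2 at 14.4 kb and Ugt1a1 at 3.1 kb, have the highest fold changes, and the others lie between -0.33 and 1.34.

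The place of the first exon and the size of the difference did not run in parallel along the whole locus. Ugt1a2 and Ugt1a1, 14.4 and 3.1 kb before shared exon 2, had the highest fold changes over control. The next highest was Ugt1a10 in dbdb, whose first exon is the farthest, and Ugt1a5 in dbR, while Ugt1a7c and Ugt1a6b, at 120.0 and 108.2 kb, had the lowest. Ugt1a5, whose coding first exon is 84.1% identical with that of Ugt1a2, differed from control by 0.74 in dbdb and 1.05 in dbR on the log2 scale, beside 5.47 and 6.32 for Ugt1a2.

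The sum of the 8 genes was 314 ± 18.2 FPKM (SD, n = 3) in control, 484 ± 102 (SD, n = 3) in dbdb and 660 ± 75.3 (SD, n = 3) in dbR libraries. The libraries ranged from 298 to 334 in control, from 385 to 590 in dbdb and from 589 to 739 in dbR, so control did not overlap with the others and dbdb met dbR at 1 library. Without Ugt1a2 the sums were 294 to 332, 264 to 332 and 313 to 371, and control and dbdb overlapped. The difference of Ugt1a2 alone came to 102.7% of that of the sum in dbdb, beside 15.3% for Ugt1a10, 11.05% for Ugt1a1 and -31.8% for Ugt1a7c. In dbR it came to 90.0%.

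The make-up of the sum differed accordingly. Ugt1a7c held 87.4% ± 2.36 (SD, n = 3) of the sum in control, 46.3% ± 5.17 (SD, n = 3) in dbdb and 41.1% ± 7.41 (SD, n = 3) in dbR libraries. Ugt1a2 held 1.29% ± 0.602 (SD, n = 3) in control, 36.0% ± 6.70 (SD, n = 3) in dbdb and 47.2% ± 8.83 (SD, n = 3) in dbR libraries. The FPKM of Ugt1a2 was above that of Ugt1a7c in dbdb replicate 1 and in dbR replicates 1 and 2, with ratios of 1.08, 1.43 and 1.41. In the other dbdb and dbR libraries the ratio was 0.643 to 0.745. Ugt1a10 held 5.31% of the sum in control, 8.99% in dbdb and 4.81% in dbR, and Ugt1a1 held 0.595%, 4.24% and 3.49%.

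**Figure D3:**
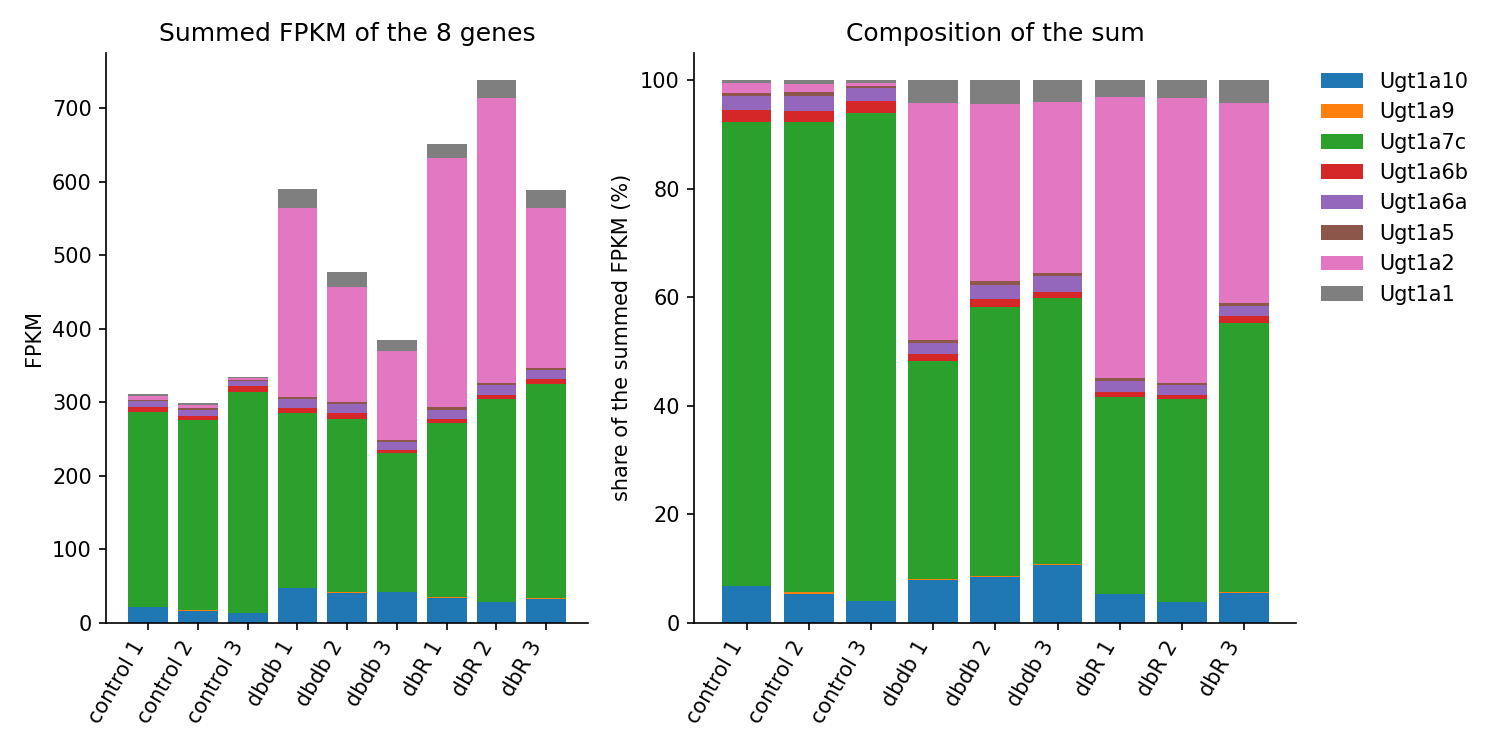
Left, FPKM of the 8 Ugt1a genes stacked for each library; right, the same as a share of the sum in percent. Ugt1a7c takes 85.5% to 90.0% of the sum in the control libraries, and Ugt1a2 takes 31.5% to 52.6% in the dbdb and dbR libraries.

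Whether rosiglitazone moved the locus in diabetic mice is the comparison of dbR with dbdb, which was tested on the assumption that it did not enter the choice of the locus. None of the 12 transcripts passed with limma and Benjamini-Hochberg adjustment over all transcripts, beside 0.0126% of all transcripts, which is 4 transcripts. An unadjusted p under 0.05 was reached by 2 of the 12, against 10.2% of all transcripts. That count was 0 without dbdb replicate 3 and without dbR replicate 2, and 4 with a pseudocount of 1 and in the fit to the 6 libraries. The libraries of dbdb are also those in which the locus was seen to differ from control, so a high dbdb value enters both comparisons.

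Ugt1a2-201 was 0.85 (SE 0.39) higher on the log2 scale in dbR than in dbdb, with an adjusted p of 0.510 from limma and a 95% interval of -0.04 to 1.74. In 2 of the 3 dbR libraries its FPKM was above every dbdb library. Ugt1a1-201 differed by 0.17 (SE 0.20), with an adjusted p of 0.823 from limma and an interval of -0.29 to 0.62. Ugt1a7c-201 was 0.31 (SE 0.11) higher in dbR, with all 3 dbR libraries above all 3 dbdb libraries, an adjusted p of 0.408 and an unadjusted p of 0.0264 from limma. Without dbdb replicate 3 this difference was 0.195, and with quantile normalization 0.194.

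Ugt1a10-201 went the other way, by -0.44 (SE 0.18), with all 3 dbR libraries below all 3 dbdb libraries, an adjusted p of 0.441 and an unadjusted p of 0.0346 from limma. Ugt1a10-202 differed by -0.51 (SE 0.24), also without overlap, with an adjusted p of 0.519 from limma. Ugt1a7c-201 and these 2 Ugt1a10 transcripts are the only tested ones with no overlap between dbR and dbdb, 3 of 12 beside 16.1% of all transcripts. The 2 of Ugt1a10 are not separate members, since only 23 of the 717 nucleotides of Ugt1a10-202 lie outside other Ugt1a transcripts. With FPKM summed per gene Ugt1a10 again did not overlap. Ugt1a7c did, at 189 to 238 in dbdb and 237 to 292 in dbR libraries. Ugt1a6a-201 differed by 0.03 with an interval of -0.16 to 0.22, the narrowest among the 12. With FPKM summed per gene, where 0.743% of 14526 genes passed, none of the 8 genes passed either, with adjusted p-values from limma between 0.165 and 0.995, and 3 of the 8 had an unadjusted p under 0.05, beside 17.5% of all genes.

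**Figure D4:**
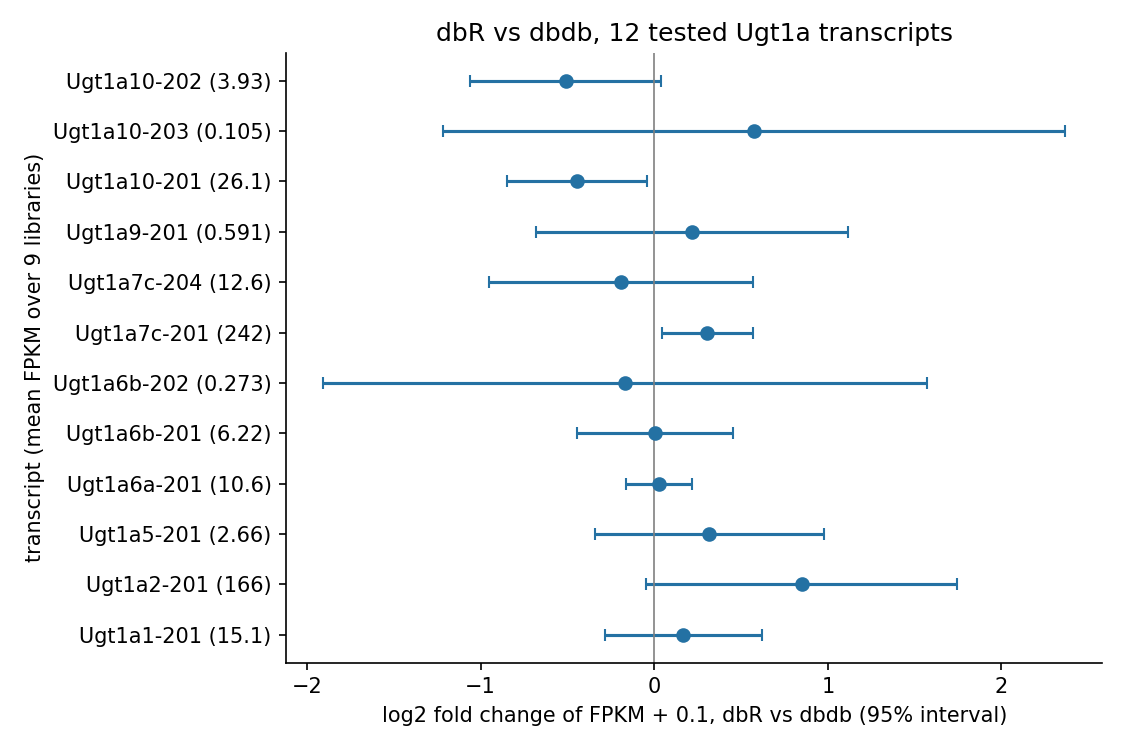
The log2 fold change between dbR and dbdb (x axis, FPKM + 0.1, 95% interval) of the 12 tested Ugt1a transcripts, listed with their mean FPKM over the 9 libraries. The interval of Ugt1a2-201 runs from -0.04 to 1.74, and those of Ugt1a10-201 and Ugt1a7c-201 lie to opposite sides of 0 before adjustment.

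Other RNAs come from the same stretch of the genome. Within the span and 100 kb on either side, 7 further genes had deposited values, and no lncRNA assembled by the authors lay there. Dnajb3, a gene for a DNAJ-family co-chaperone, lies on the minus strand between the first exons of Ugt1a2 and Ugt1a1, at chr1:88204732-88205782. Its FPKM was 0.431, 0.851 and 0.625 in control, 3.75, 2.94 and 1.61 in dbdb and 2.82, 3.19 and 2.40 in dbR libraries. It was higher in every dbdb and dbR library than in control, by 1.93 (SE 0.33) and 2.01 (SE 0.33) on the log2 scale. Dnajb3 lies inside the intron of Ugt1a2, and the sources used here do not say whether strand was used when fragments were counted, so reads of that intron and of Dnajb3 may not be told apart.

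The antisense lncRNA Gm20528 overlaps the locus on the minus strand, and its FPKM of 2.20 to 2.88 in control, 1.71 to 4.0 in dbdb and 2.93 to 3.90 in dbR libraries overlapped between dbdb and both other groups. Ugt1a8, another gene of the locus with the same shared exons that is not among the 8, reached at most 0.304. Outside the span, Usp40, a ubiquitin protease, had 8.26 to 8.46 in control, 8.69 to 9.39 in dbdb and 7.40 to 7.88 in dbR libraries. Hjurp, a chaperone of the centromere, had 1.72 to 2.57, 2.83 to 3.15 and 2.32 to 4.8. None of the tested transcripts of Gm20528, Ugt1a8, Usp40, Hjurp and Mroh2a passed in any of the 3 comparisons, and Trpm8 was at 0 in every library.

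Glucuronidation also depends on the supply of UDP-glucuronic acid and on the export of the products. FPKM was summed per gene for 11 genes of this list, and in dbdb vs. control 3 were higher and 4 lower at an adjusted p under 0.05 (limma), beside 26.4% of 14526 genes, 13.1% higher and 13.4% lower. The median log2 fold change of the list was -0.06, beside -0.003 over all genes. Ugdh, the enzyme that makes UDP-glucuronic acid, had an FPKM of 58.7 ± 4.55 (SD, n = 3) in control and of 37.3 ± 4.19 (SD, n = 3) in dbdb libraries and fell by 0.66 on the log2 scale (adjusted p = 0.000905 from limma). Gusb, the lysosomal glucuronidase that removes glucuronic acid, fell by 0.49 on the log2 scale. Of the exporters, Abcc4 rose by 1.40 and Abcc3 by 1.15, Abcg2 fell by 0.48, and Abcc2 differed by -0.06 and did not pass. Slc35d1, a carrier of UDP-glucuronic acid into the endoplasmic reticulum, rose by 0.42, and Slc35b1, a nucleotide carrier of the same membrane, fell by 0.28. In dbR vs. dbdb none of the 11 passed with limma, beside 0.743% of all genes, and 2 had an unadjusted p under 0.05, beside 17.5%.

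Most of the other measured glucuronosyltransferase and glycosyltransferase genes of the Ugt families went the other way from Ugt1a2 in dbdb vs. control. Of 13, 8 were read at a mean FPKM of at least 0.1, and in dbdb vs. control 6 of them fell (13.4% of all genes) and 1 rose (13.1%), with a median log2 fold change of -0.93. Ugt2b38 had 869 to 1141 FPKM in control and 254 to 290 in dbdb libraries, a log2 change of -1.83. Ugt2b37 (-1.86), Ugt3a1 (-1.08), Ugt8a (-0.93), Ugt2a3 (-0.92) and Ugt3a2 (-0.83) fell too. Ugt2b34 rose by 0.60, from 11.8 to 13.2 FPKM in control to 16.1 to 20.4 in dbdb libraries. It had 20.5 to 25.1 in dbR libraries, the same order of groups as Ugt1a2 with a smaller difference. None of the 8 passed in dbR vs. dbdb with limma, and 4 had an unadjusted p under 0.05, beside 17.5% of all genes.

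Among 16 measured transcription factors and cofactors that act on Ugt1a genes, 4 rose and 2 fell in dbdb vs. control, beside 26.4% of all genes in either direction. Ppara rose from 37.3 ± 2.48 (SD, n = 3) to 64.2 ± 6.59 (SD, n = 3), and Nr1i2, which encodes PXR, from 1.52 to 2.44. Rxra and Arnt rose by 0.35 and 0.28 on the log2 scale, and Nr3c1 and Ncor1 fell by 0.39 and 0.28. Ahr, Nfe2l2 and Hnf4a did not pass, with log2 differences between -0.11 and 0.16. Pparg, the target of rosiglitazone, was low, at 0.563 to 2.26 in control, 0.259 to 0.471 in dbdb and 0.583 to 1.20 in dbR libraries. None of the 16 passed in dbR vs. dbdb with limma, and 2 had an unadjusted p under 0.05, beside 17.5% of all genes.

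Known targets of these factors moved in both directions. Each count in dbdb vs. control is read beside the 13.1% of all genes that rose and the 13.4% that fell. Of 9 measured PPARα targets, 5 rose and 3 fell in dbdb vs. control. Cyp4a14, a fatty acid hydroxylase, rose from 5.55 ± 0.81 (SD, n = 3) to 156 ± 24.6 (SD, n = 3). Pdk4, Cyp4a10 and Acot1 rose by 1.60, 1.09 and 0.56 on the log2 scale, while Ehhadh and Acadm, enzymes of fatty acid oxidation, fell by 0.96 and 0.47. In dbR vs. dbdb, where 0.743% of all genes passed, Pdk4 fell by 0.98 (adjusted p = 0.0254 from limma) and no other of the 9 passed.

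Of 14 measured NRF2 targets, 6 rose and 3 fell in dbdb vs. control, beside 26.4% of all genes in either direction. The glutathione transferases Gsta1 (3.14), Gsta2 (2.14) and Gsta4 (0.83), the hydrolase Ephx1 (0.94), the exporter Abcc4 (1.40) and Srxn1 (0.41) rose on the log2 scale. The glutathione-synthesis genes Gclm (-1.16) and Gclc (-0.83) and the heme oxygenase Hmox1 (-0.38) fell. Of 4 measured aryl hydrocarbon receptor targets only Cyp1b1 rose, by 0.59, while Cyp1a1 had 0.196 to 0.471 FPKM over the 9 libraries. Of 8 measured CAR and PXR targets, Gadd45b, Abcc3, Alas1 and Abcb1a rose, and the liver genes Cyp2b10 and Cyp3a11 had at most 0.645 and 0.0683 FPKM. In dbR vs. dbdb, where 0.743% of all genes passed, the quinone reductase Nqo1 rose by 0.41 (adjusted p = 0.0433 from limma). It stands in the NRF2 and aryl hydrocarbon receptor lists and had 29.9 to 36.5 FPKM in dbdb and 43.8 to 44.6 in dbR libraries. No other gene of the NRF2, aryl hydrocarbon receptor, CAR and PXR lists passed there.

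**Figure D5:**
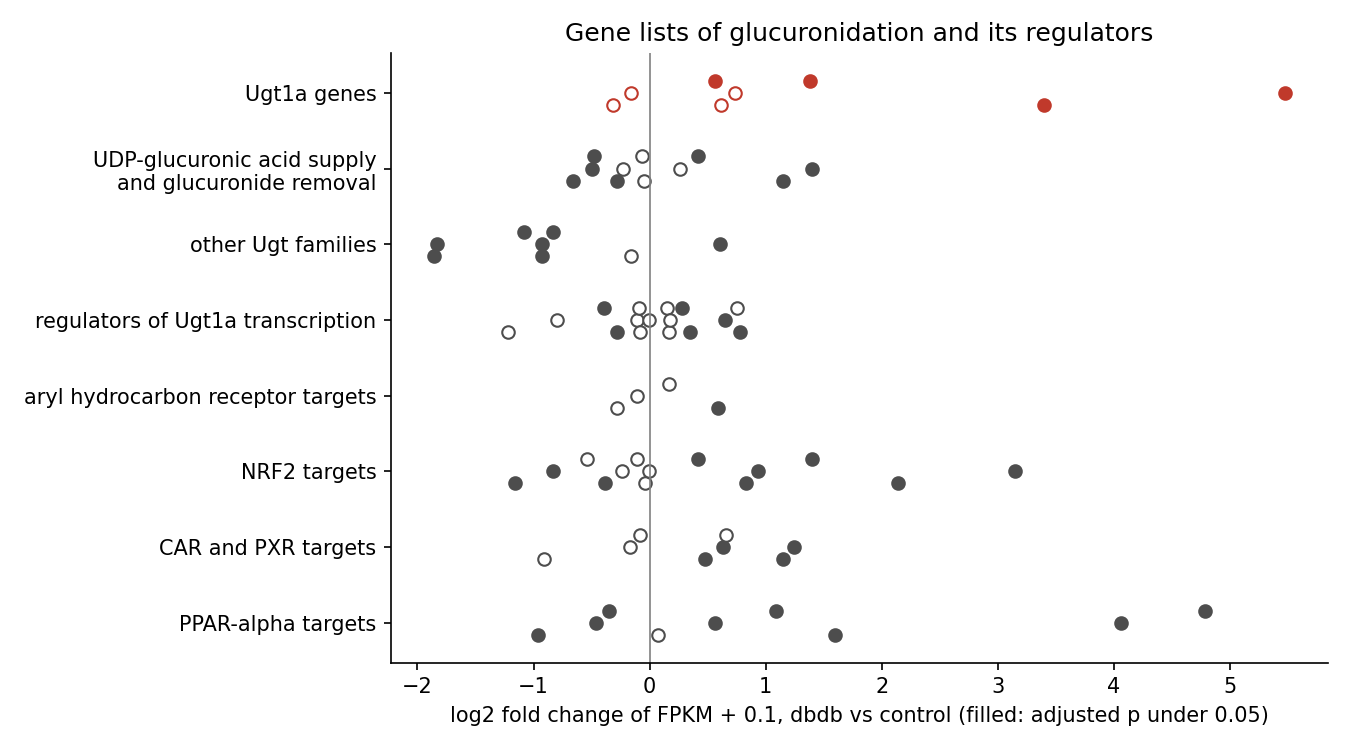
The log2 fold change in dbdb vs. control (x axis, FPKM + 0.1, summed per gene) of the genes of each list (y axis); each point is a gene and filled points passed an adjusted p under 0.05. The members of the other Ugt families lie mostly below 0, and the highest point outside the Ugt1a genes is Cyp4a14 at 4.79.

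The genes whose levels ran most like those of the members over the 9 libraries were ranked by the root mean square difference of log2(FPKM + 0.1) after centring, among 11612 genes outside the locus with a mean FPKM of at least 1. For Ugt1a2 the nearest was Cyp4a14 (0.717), and Gsta1 (1.249) was also among the first 3. The FPKM of Cyp4a14 was 4.67 to 6.27 in control, 134 to 183 in dbdb and 173 to 215 in dbR libraries. For Ugt1a1 the nearest was Bhmt (0.301), an enzyme of homocysteine remethylation, and Gsta1 (0.415) was also among the first 3. For Ugt1a10 the first 3 were Foxo3 (0.157), Per1 (0.173), a clock gene, and Foxq1 (0.177), of which Foxo3 had 17.5 to 19.8, 40.5 to 42.3 and 30.2 to 35.3 FPKM in control, dbdb and dbR libraries. The nearest gene was Itgb3bp (0.0717) for Ugt1a6a, Stab2 (0.135) for Ugt1a5, Nudt6 (0.117) for Ugt1a6b and Gchfr (0.0466) for Ugt1a7c. Ugt1a9, with a mean FPKM below 1, was not compared.

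Markers of other cell types also moved between the groups. In dbdb vs. control, where 13.1% of all genes rose and 13.4% fell, all 4 endothelial markers and 4 of 5 leukocyte markers fell, with summed FPKM of 90.0 to 98.7 in control and 63.3 to 69.1 in dbdb for the first and of 16.8 to 23.9 and 7.46 to 10.01 for the second. Collecting duct markers were higher, at 94.0 to 114 in control and 138 to 228 in dbdb libraries, with 4 of 5 passing. Markers of the loop of Henle and distal tubule were higher too, at 535 to 635 in control, 750 to 1051 in dbdb and 805 to 891 in dbR libraries, and 3 of 5 rose in dbdb, Calb1 by 2.12, Slc12a3 by 0.98 and Pvalb by 0.54 on the log2 scale. Of the glomerular markers 2 of 4 rose, and of the proximal tubule markers 2 of 8 rose and 1 fell. In dbR libraries the endothelial, leukocyte and collecting duct sums were 90.3 to 108, 10.6 to 13.1 and 151 to 169, and 4 markers passed in dbR vs. dbdb, all higher, beside 0.743% of all genes. They were the endothelial genes Emcn and Kdr, the collecting duct gene Atp6v1g3 and the adipose gene Fabp4 (limma, adjusted p = 0.0204, 0.0308, 0.0251 and 0.0450). Of the 3 measured adipose markers 2 fell in dbdb vs. control. The summed FPKM of that list was 32.6 to 43.8 in control, 21.9 to 32.9 in dbdb and 43.2 to 46.4 in dbR libraries. Fabp4 held most of that sum, at 30.6 to 41.6, 21.9 to 32.9 and 43.15 to 45.8 FPKM. Cfd reached 1.88 in control and was at 0 in every dbR library. Adipoq, Plin1 and Lep reached at most 0.515, 0.105 and 0.0343 over all libraries. None of the 3 measured urothelial markers passed in either comparison. In whole cortex fewer cells of a type and less RNA per cell cannot be told apart, and the part of cell composition in the Ugt1a values was not tested. Of the 5 adrenal markers Cyp11b1 and Cyp11b2 were at 0 in every library and Cyp11a1 in all but 1, while Hsd3b1 rose from 0.153 to 0.195 FPKM in control to 0.767 to 0.936 in dbdb libraries and Star had 0.597 to 0.943 and 1.10 to 1.37. Of the 9 liver markers Ahsg and Tat were at 0 in every library. Of the other 7, Alb and Ttr rose and Cyp2e1 fell in dbdb vs. control. Serpina1a had 21.5 to 50.1 FPKM and Apoa2 4.97 to 9.14 over the 9 libraries, and Ttr reached at most 0.966. Alb had 4.81 to 5.17 FPKM in control, 6.80 to 11.3 in dbdb and 13.9 to 17.4 in dbR libraries, and Cyp2e1, which renal tubules also express, held most of the list's sum and was lower in dbdb (585 to 863) than in control (1330 to 1770).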

How the data were processed

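Renal cortex RNA of 3 control, 3 dbdb and 3 dbR mice, depleted of ribosomal RNA, was sequenced in strand-specific libraries. The authors aligned the reads with TopHat2 2.0.9 to GRCm38.p2, assembled them with Scripture and Cufflinks 2.1.1, and deposited FPKM per transcript as given by Cufflinks for mRNAs, annotated lncRNAs and assembled lncRNAs. FPKM values hold no counts, and depth was estimated from the steps between low values. Transcripts whose FPKM averaged 0.1 or more over the 9 libraries were fitted as log2(FPKM + 0.1) with limma 3.58.1 (R 4.3.3), with a variance trend and 1 model for the 3 groups. P-values are two-sided with Benjamini-Hochberg adjustment, and a call is an adjusted p under 0.05. The added 0.1 makes fold changes of low transcripts too small. Gene lists were fitted on FPKM summed per gene. The fit was tested on simulated data. Structure and junction sequences came from GENCODE, upstream sequences from RefSeq. Coding first-exon identity replaced the planned protein comparison, for which no sequences were used here. The members and lists were chosen with earlier results of these data known. The text names all member transcripts, neighbours within 100 kb and list genes by their largest changes or role. It also names the genes most like each member except Ugt1a9 (up to 3 for Ugt1a2, Ugt1a1 and Ugt1a10, and the nearest for the others). Alternatives were pseudocounts of 1 and 0.01, no filter, a mean of at least 1, 75th percentile, quantile and mitochondria-free scaling, fits to 6 libraries, gene sums, a replicate block and each library left out. Some genes counted in the lists, and 1 planned motif, are not reported here. Replicate numbers did not pair the libraries. Figures used matplotlib 3.10.9.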

Additional observations from a re-analysis of the deposited data

How the results depend on the processing

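All libraries rest on an estimated 24.8 to 30.8 M fragments, and a member at an FPKM below 1 rests on few of them. Under the alternatives run, which tested 9 to 14 member transcripts or 8 genes, none passed in dbR vs. dbdb, 5 to 6 transcripts passed in dbdb vs. control (4 genes with gene sums) and 3 to 6 in dbR vs. control (5 genes). Without each library in turn the counts were 5 to 6, 0 to 0 and 3 to 6. Replicate numbers did not pair the libraries, since deviations of same-numbered libraries correlated between -0.10 and 0.03. With the replicate number as a block, 5, 0 and 6 members passed in dbdb vs. control, dbR vs. dbdb and dbR vs. control, and over all transcripts 1990, 0 and 1830 in place of 2940, 4 and 2644. Ugt1a5 was the member added in dbR vs. control.

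Under scaling to an equal sum without the mitochondrial transcripts, the median log2 difference of all transcripts in dbdb vs. control moved from 0.01 to 0.14 and the share of higher transcripts among those called from 47.1% to 72.6%, and in dbR vs. control that share moved from 47.4% to 64.2%. With that scaling, log2 differences changed sign in dbdb vs. control for Ugt1a6b-201 (0.0867) and Ugt1a7c-204 (0.0912), in dbR vs. dbdb for Ugt1a6a-201 (-0.0269) and Ugt1a6b-201 (-0.0499), and in dbR vs. control for Ugt1a7c-201 (0.0685) and Ugt1a6b-201 (0.0367). Ugt1a7c-201 also did so in dbR vs. control with the 75th percentile (0.001002) and Ugt1a6b in dbR vs. dbdb with gene sums (-0.00341). The cause was not tested, and none of these passed.

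Leaving out 1 library changed the sign of further small differences. The ranges in dbdb vs. control were -0.23 to 0.19 for Ugt1a6b-201 and -0.51 to 0.22 for Ugt1a7c-204. In dbR vs. dbdb they were -0.0323 to 0.106 for Ugt1a6a-201, -0.0221 to 0.323 for Ugt1a1-201, -0.0605 to 0.455 for Ugt1a9-201, -0.24 to 0.18 for Ugt1a6b-201 and -0.80 to 0.63 for Ugt1a6b-202. In dbR vs. control they were -0.0901 to 0.0653 for Ugt1a7c-201 and -0.70 to 0.0272 for Ugt1a7c-204. Ugt1a6b-202 passed in dbdb vs. control without dbdb replicate 1 (-2.78) and Ugt1a7c-204 in dbR vs. control without control replicate 2 (-0.70).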

Other observations

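Within the dbdb and dbR groups, Ugt1a2 varied between mice. Gsta2, a glutathione transferase gene of the NRF2 list chosen here after its values were seen, varied in a like way. Ugt1a2 had 258, 156 and 121 FPKM in dbdb replicates 1 to 3, and Gsta2 had 239, 87.5 and 51.5. In dbR replicates 1 to 3 they had 339, 388 and 218 and 248, 253 and 170. Cyp4a14 did not share that spread, at 183, 151 and 134 in dbdb and 173, 179 and 215 in dbR. These are 9 libraries that share the difference between control and the other groups, so the values are given side by side with no measure of their relation.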
